A study of Mus musculus with 106 samples.

Results

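The Hox clusters are the 39 protein-coding mouse genes whose symbol is Hoxa, Hoxb, Hoxc or Hoxd followed by a number, out of 21938 protein-coding genes in the annotation. They lie in 4 clusters on GRCm38. Hoxa holds 11 genes (chr6:52155590-52260880), Hoxb 10 (chr11:96194316-96368256), Hoxc 9 (chr15:102921103-103036852) and Hoxd 9 (chr2:74668310-74765142). The genes were taken by symbol.

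Chromatin immunoprecipitation and sequencing (ChIP-seq) of 2 histone marks was deposited as 70 peak lists, 35 for acetylation of histone H3 at lysine 27 (H3K27ac) and 35 for trimethylation at lysine 4 (H3K4me3). All mice were C57BL/6J and were 12 to 14 weeks old when assigned to a group. Diabetic mice had received streptozotocin, a toxin of the insulin-producing beta cell, at 42 to 45 mg/kg/day for 5 days and were used 6 weeks later with blood glucose above 13.9 mmol/L, and control mice were not diabetic. The cells named HSC were marrow cells depleted of those carrying CD3, CD4, B220, Ter119 or Gr1, which leaves a mixed progenitor fraction rather than purified stem cells. Bone marrow-derived macrophages (BMDM) were grown for 7 days in 5 mmol/L glucose with medium conditioned by L929 cells, and were either left unstimulated or stimulated for 16 hours with LPS at 100 ng/mL together with IFN-γ at 10 ng/mL (LPS+IFN-γ). Each mark had 6 libraries a group, except unstimulated diabetic BMDM with 5.

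Hox genes encode homeodomain transcription factors that pattern the body axis, and within a cluster they are ordered by the level at which each acts. In marrow, Hoxa7, Hoxa9 and Hoxb4 are known for their roles in stem and progenitor cells. H3K4me3 marks promoters, including those kept silent by Polycomb proteins, whereas H3K27ac marks active promoters and enhancers and cannot sit on a residue that Polycomb has methylated.

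The lists ran from 13730 to 277213 peaks, with a median of 110154.5, so the 10000 peaks with the highest −log10 p of each list were compared. A promoter was called held by a library when one of these peaks touched the 1 kb to either side of any annotated start of the gene. The windows of Hoxd3 and Hoxd4 overlapped each other, as did those of Hoxc5 and Hoxc10, so a peak there counted for both. Cover is the percentage of a cluster's length under the same peaks. Reads were not analysed here, so the depth of each library is unknown, and fewer cells with a mark cannot be told apart from less mark per cell.

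Some libraries went against their labels or stood apart. Among control BMDM, the H3K27ac lists labelled unstimulated 5 and 6 held 18 and 17 of 26 regions that otherwise marked stimulated cells, and 5 and 1 of 27 that marked unstimulated cells, whereas the list labelled LPS+IFN-γ 5 held 5 and 25. The Fisher and cover tests were therefore repeated without these 3 libraries of each mark, and the limma fits and the counts of both marks were not. Among the H3K4me3 lists, 4 of BMDM had peak values of unclear scaling in an earlier look at these data. That of HSC diabetic library 6 was the shortest, with 13730 peaks. The Fisher and cover tests of this mark were repeated without these 5, and the limma fits and the counts of both marks were not. Of 10 stem and progenitor markers, H3K27ac held a median of 4.5 in HSC and 0 in both BMDM states, and of 10 macrophage markers a median of 0 in HSC, 3 in unstimulated BMDM and 2.5 in stimulated BMDM. HSC libraries also held 2 to 5 of 6 erythroid markers against 0 to 2 in unstimulated BMDM, 0 of 5 B lymphoid markers and 0 to 1 of 8 stromal markers. Of 6 neutrophil granule and 4 T lymphoid markers they held 0 to 1 each, namely Prtn3 and Lck. H3K27ac held each of these in 7 of 12 HSC and 1 of 11 unstimulated BMDM libraries. H3K4me3 held the T lymphoid marker Bcl11b in 12 and 2. The part of erythroid or other lineage cells in the HSC results was not tested.

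The sequences show the places to which the results refer, in lower case with each CpG in capitals. Of the 39 genes, 22 were matched in the table of RefSeq promoters used here (GRCm38.p6, 24 promoters of 300 bases from 250 before the start to 50 after it). Hoxb4 was the promoter with H3K27ac in every library, Hoxa7 and Hoxa9 carried it mainly in HSC, Hoxd1 carried H3K4me3 without H3K27ac, and Hoxb1 had little of either. The Hoxa7 and Hoxa9 promoters are read from the minus strand and the other sequences from the plus strand. The Hoxa7-Hoxa9 site (chr6:52221855-52222120) lies just beyond the start of a long Hoxa7 transcript, and the Hoxa9 internal site (chr6:52225618-52225815) lies within the coding part of the main Hoxa9 transcript.
Hoxb4 promoter (chr11:96318017-96318316): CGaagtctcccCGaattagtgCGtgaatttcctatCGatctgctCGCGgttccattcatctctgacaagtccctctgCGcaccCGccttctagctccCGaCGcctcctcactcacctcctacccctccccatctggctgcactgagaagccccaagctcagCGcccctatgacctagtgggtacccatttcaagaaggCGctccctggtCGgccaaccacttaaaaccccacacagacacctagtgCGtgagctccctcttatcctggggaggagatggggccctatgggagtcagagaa
Hoxa7 promoter (chr6:52218524-52218823): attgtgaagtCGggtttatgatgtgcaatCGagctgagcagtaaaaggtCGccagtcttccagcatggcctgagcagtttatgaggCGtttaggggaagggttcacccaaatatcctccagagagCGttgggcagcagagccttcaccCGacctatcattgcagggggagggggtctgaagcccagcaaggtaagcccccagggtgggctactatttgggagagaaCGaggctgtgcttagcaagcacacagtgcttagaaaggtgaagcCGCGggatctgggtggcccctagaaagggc
Hoxa9 promoter (chr6:52227321-52227620): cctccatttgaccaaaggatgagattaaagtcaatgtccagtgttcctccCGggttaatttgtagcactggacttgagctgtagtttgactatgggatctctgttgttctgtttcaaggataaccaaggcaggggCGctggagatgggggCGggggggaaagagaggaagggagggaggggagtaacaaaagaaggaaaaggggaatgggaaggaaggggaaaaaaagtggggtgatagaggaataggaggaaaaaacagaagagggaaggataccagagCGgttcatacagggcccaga
Hoxd1 promoter (chr2:74762730-74763029): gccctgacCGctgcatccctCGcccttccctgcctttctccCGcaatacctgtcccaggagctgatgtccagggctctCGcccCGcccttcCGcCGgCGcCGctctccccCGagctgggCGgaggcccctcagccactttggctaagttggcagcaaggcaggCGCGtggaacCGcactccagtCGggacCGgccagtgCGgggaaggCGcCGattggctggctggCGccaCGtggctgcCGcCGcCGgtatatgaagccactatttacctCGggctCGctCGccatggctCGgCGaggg
Hoxb1 promoter (chr11:96365508-96365807): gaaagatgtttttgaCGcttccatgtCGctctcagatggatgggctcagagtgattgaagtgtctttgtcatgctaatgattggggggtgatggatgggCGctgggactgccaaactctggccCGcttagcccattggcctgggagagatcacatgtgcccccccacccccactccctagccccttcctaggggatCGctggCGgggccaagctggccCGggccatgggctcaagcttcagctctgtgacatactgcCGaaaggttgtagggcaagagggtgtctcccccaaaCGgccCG
Hoxa7-Hoxa9 site: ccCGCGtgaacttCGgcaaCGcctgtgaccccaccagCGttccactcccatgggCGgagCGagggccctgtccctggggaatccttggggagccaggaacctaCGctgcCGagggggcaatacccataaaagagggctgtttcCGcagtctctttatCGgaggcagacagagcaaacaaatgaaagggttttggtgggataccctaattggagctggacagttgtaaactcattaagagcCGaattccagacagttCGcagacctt
Hoxa9 internal site: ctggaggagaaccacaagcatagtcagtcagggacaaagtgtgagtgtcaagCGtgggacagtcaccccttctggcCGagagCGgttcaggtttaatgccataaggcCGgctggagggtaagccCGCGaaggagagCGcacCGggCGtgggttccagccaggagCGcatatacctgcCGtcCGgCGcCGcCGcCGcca
These promoters differed widely in CpG content, with 29 CpG at Hoxd1, 14 at Hoxb4, 10 at Hoxb1, 9 at Hoxa7 and 4 at Hoxa9. Over the 24 Hox promoters the median was 14.5 CpG, against 13 over 21262 promoters of protein-coding genes. A HOX-PBX motif (TGATTNAT on either strand) was found in 8.33% of the Hox promoters and 2.75% of all, a MEIS motif (TGACAG) in 8.33% and 18.7%, and a TATA motif (TATAAA) in 16.7% and 12.6%. The HOX-PBX share rests on 2 promoters, those of Hoxa2 and Hoxd11.

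H3K27ac was sparse on the Hox clusters in all 3 cell states and was limited to Hoxa and Hoxb. A library held 1 to 5 of the 39 promoters with a median of 3, or 7.69%, whereas the median library held 40.7% of all protein-coding promoters. The 9 Hoxc and 9 Hoxd promoters were held by 0 of 35 libraries, and H3K27ac covered 0% of both clusters. In the lists as deposited, weaker peaks reached between 8 and 37 Hox promoters in a library, so this absence concerns strong peaks only. The map of promoters held shows H3K27ac at Hoxa4, Hoxa7, Hoxa9 and Hoxb4 in several libraries.

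**Figure D1:**
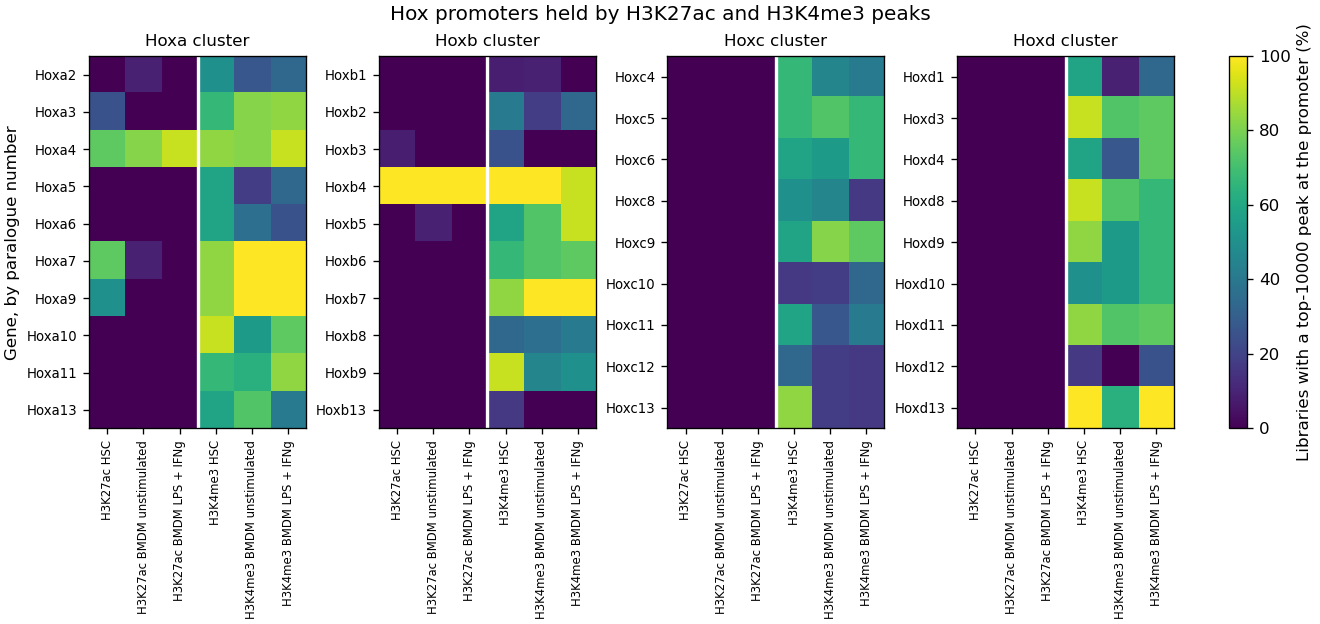
Percentage of libraries (colour, 0 to 100) whose 10000 strongest peaks touch each of the Hox promoters drawn, for 3 cell states and both marks, in the 4 clusters; n is 12 HSC, 11 unstimulated BMDM and 12 stimulated BMDM libraries a mark. H3K27ac is limited to a few Hoxa and Hoxb promoters, and Hoxc and Hoxd show H3K4me3 with 0 libraries of H3K27ac.

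Hoxb4, a regulator of stem cell self-renewal, was held by H3K27ac in 12 of 12 HSC, 11 of 11 unstimulated and 12 of 12 stimulated BMDM libraries. The percentile of its promoter among all genes, on which limma was fitted, had a median of 66.8 in HSC (61.1 to 73.2), 88.3 in unstimulated BMDM (66.8 to 98.3) and 89.8 in stimulated BMDM (76.9 to 96.2). The H3K27ac lists held from 51162 to 176559 peaks, so ranks within them are a description. The rank of its strongest peak ran from 5422 to 8770 in HSC with a median of 6985.5, from 364 to 7853 in unstimulated BMDM with a median of 2372, and from 836 to 5027 in stimulated BMDM with a median of 2301. The ranges of HSC and unstimulated BMDM overlapped, while every LPS+IFN-γ library ranked Hoxb4 above every HSC library. The best HSC rank was 5422, so with 5000 peaks no HSC library held Hoxb4. A second H3K27ac site (chr11:96314092-96315568) lay 3438 bp from the Hoxb4 start, outside annotated exons, and was present in 2 HSC, 6 unstimulated and 9 LPS+IFN-γ libraries.

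Hoxa7 and Hoxa9, regulators of progenitor growth, carried H3K27ac mainly in HSC. Hoxa7 was held in 9 of 12 HSC libraries, 1 of 11 unstimulated and 0 of 12 stimulated BMDM libraries, and Hoxa9 in 6, 0 and 0. Both sat close to the limit of 10000 peaks in HSC. Hoxa7 had a median rank of 9288.5 in control and 8183.5 in diabetic HSC libraries, and peaks of any strength touched its promoter in all 35 lists. Hoxa9 had a median rank of 10012.5 in HSC (8590 to 42839). Its percentile among all genes had a median of 55.8 in HSC (43.9 to 60.0) and 41.4 in unstimulated BMDM (17.8 to 53.7), with overlapping ranges. Most of this signal was away from the main starts. The Hoxa7-Hoxa9 site (whole extent chr6:52221155-52222737) was present in 9 HSC libraries, 1 unstimulated and 0 LPS+IFN-γ libraries, and the main Hoxa7 start (chr6:52216746-52218706) in 4, 0 and 0. The Hoxa9 internal site (chr6:52224954-52226961) was present in 5 HSC libraries and 0 BMDM libraries. A peak at a start of Hoxa3 and of the overlapping locus Gm28308 (chr6:52211634-52213451) was present in 3 HSC libraries and 0 BMDM libraries.

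Hoxa4 was held in all 3 states, in 9 of 12 HSC, 9 of 11 unstimulated and 11 of 12 stimulated BMDM libraries. Its peak lay on different sides of the start. More than 100 bp upstream of the start were covered in 4 HSC, 8 unstimulated and 10 LPS+IFN-γ libraries, and more than 100 bp downstream in 8, 5 and 5. This split was noticed in the data and is given without a test. Hoxa2 and Hoxb5 were held by 1 library each of unstimulated BMDM and Hoxb3 by 1 of HSC.

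**Figure D2:**
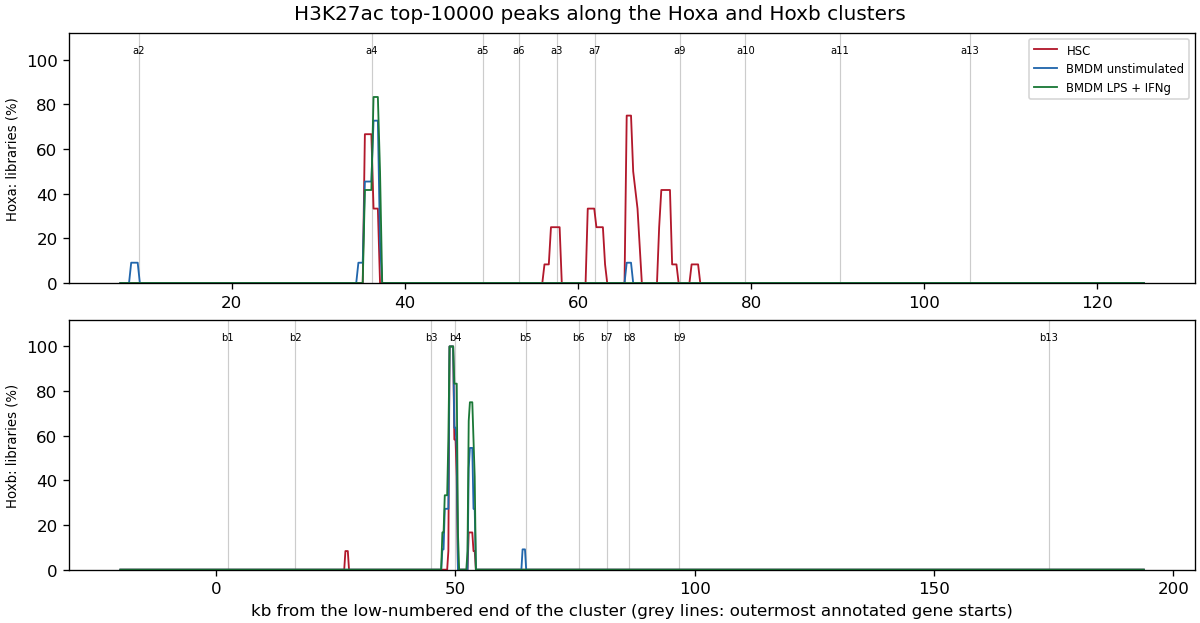
Percentage of libraries with one of the 10000 strongest H3K27ac peaks in each 250-bp bin along Hoxa and Hoxb, against distance in kb from the low-numbered end. Each grey line is a single annotated start of a gene drawn, which is not always the outermost one that the axis label names. Hoxa is drawn from 7 kb on. HSC peaks stand between Hoxa3 and Hoxa9, and all states share Hoxa4 and Hoxb4.

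Whether HSC and unstimulated BMDM differed was tested with Fisher's exact test on all genes (two-sided, Benjamini-Hochberg adjustment over the 3302 genes that could reach p = 0.05). Across them 36.8% passed, 25.4% held more often in HSC and 11.4% in BMDM. Of the 39 Hox genes 4 could be tested and 3 passed, Hoxa7 and Hoxa9 among them. Hoxa7 was higher in HSC by 65.9 percentage points of libraries (adjusted p = 0.0136) and Hoxa9 by 50.0 points (adjusted p = 0.0373), and Hoxa4 did not pass. Without the 3 control BMDM libraries of doubtful label, the adjusted p was 0.0272 for Hoxa7 and 0.0537 for Hoxa9. The Hoxa9 call was also lost when any of the 6 HSC libraries that held it was left out, with an adjusted p of up to 0.0741. With only the principal start of each gene, neither Hoxa7 (33.3 points) nor Hoxa9 (8.33 points) passed.

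The same question was put to the percentile of each gene's strongest promoter peak among all genes, fitted with limma with disease as a covariate, where all 39 Hox genes could be tested. For H3K27ac, 4 Hox genes were higher in HSC and 8 lower, where 15.6% and 15.1% of 17881 genes passed in these directions. Hoxb4 was lower in HSC by 21.2 percentile points (SE 2.97, adjusted p = 4.42e-06). Hoxa9 was higher by 15.1 points (SE 3.54, adjusted p = 0.00183), Hoxb3 by 15.1 and Hoxa7 by 7.96 (SE 2.35, adjusted p = 0.0113). Hoxc9 was higher in HSC by 10.9 points, while those lower also included Hoxa2, Hoxa4, Hoxd8, Hoxd9, Hoxd10 and Hoxd12. Hoxa2, Hoxb3, Hoxc9 and the 4 Hoxd genes changed among weak peaks, since each was held by 0 or 1 of the libraries compared.

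**Figure D3:**
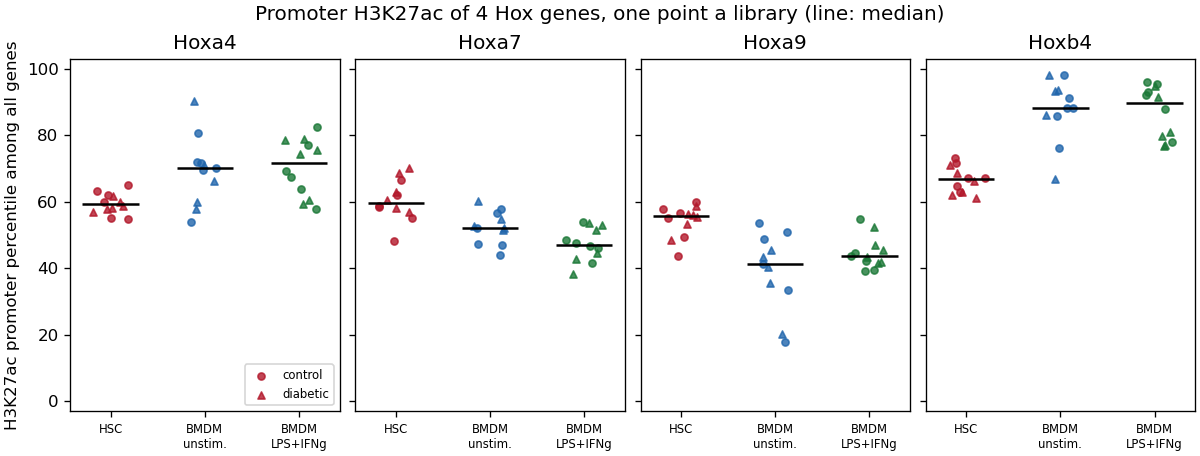
Percentile of the strongest H3K27ac promoter peak among all protein-coding genes (0 to 100) for 4 Hox genes, one point a library by cell state, circles control and triangles diabetic, lines the medians. Hoxb4 stands higher in BMDM and Hoxa7 and Hoxa9 higher in HSC, and control and diabetic libraries overlap.

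HSC libraries varied among themselves. Control libraries 1 and 4 and diabetic library 6 held no Hoxa promoter among their 10000 strongest peaks, although all 3 held Hoxb4. They held 3, 1 and 4 of 10 stem and progenitor markers and 5, 3 and 5 of 6 erythroid markers, against 2 to 6 and 2 to 4 in the other 9. The part of these markers in the absence of Hoxa peaks was not tested.

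H3K4me3 was widespread over all 4 clusters. A library held 11 to 30 of the 39 promoters with a median of 23, or 59.0%, against 41.0% of all promoters. The median was 26.5 in HSC, 19 in unstimulated BMDM and 23 in stimulated BMDM, with overlapping ranges. In 6 or more libraries, H3K4me3 held 31 Hox promoters in HSC, 21 in unstimulated BMDM and 22 in stimulated BMDM. By cluster, the share of gene and library pairs held in HSC was 69.7% for Hoxa, 52.5% for Hoxb, 54.6% for Hoxc and 70.4% for Hoxd. The corresponding shares in unstimulated BMDM were 66.9%, 45.5%, 42.4% and 47.5%. By position, genes numbered up to 4, from 5 to 8 and from 9 on were held in 59.7%, 64.4% and 62.0% of pairs in HSC. The shares were 47.7%, 62.0% and 46.6% in unstimulated BMDM and 54.9%, 62.1% and 54.2% in stimulated BMDM. Genes from 5 to 8 thus stood highest in every state, and no steady gradient from one end to the other was seen. For H3K27ac the corresponding shares were 18.1%, 6.82% and 3.13% in HSC, and 24.2%, 1.65% and 0% in unstimulated BMDM. These H3K27ac shares rest on few genes and are not read as a gradient. Among genes numbered up to 4, Hoxa4 and Hoxb4 made up 21 of the 26 pairs held in HSC. In unstimulated BMDM 8 of these 12 genes were held in 0 libraries.

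The most regular H3K4me3 promoters were Hoxb4, held in 34 of 35 libraries, and Hoxa7, Hoxa9 and Hoxb7, held in 33 each. Hoxa7 and Hoxa9 were held in 11 of 11 unstimulated BMDM libraries and 12 of 12 LPS+IFN-γ libraries, where H3K27ac held Hoxa7 in 1 of 11 and 0 of 12 and Hoxa9 in 0 of 11 and 0 of 12. Hoxb7 was likewise held in 11 and 12, and all 3 genes were held in 10 of 12 HSC libraries. The rarest were Hoxb1 and Hoxb13 in 2 libraries each and Hoxb3 in 3. A site at Hoxb2 (chr11:96351494-96353849) was present in 12 of 12 HSC, 5 unstimulated and 5 LPS+IFN-γ libraries although the Hoxb2 promoter window was held in 5, 2 and 4, and is given without a test because it was chosen from the data.

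Along Hoxa, H3K4me3 held Hoxa10, a factor of progenitor growth, in 11 of 12 HSC, 6 of 11 unstimulated and 9 of 12 stimulated libraries. Hoxa2, Hoxa5 and Hoxa6 were held in 6, 7 and 7 HSC libraries and in 2 to 4 libraries of either BMDM state. Hoxa3, Hoxa4, Hoxa11 and Hoxa13 were held in 7 to 10 HSC libraries and in 5 to 11 libraries of either BMDM state.

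Along Hoxb, the widest H3K4me3 site of the cluster (chr11:96282192-96287902, 5711 bp after merging) contained starts of Hoxb7 and Hoxb8 and was present in all 35 libraries. Hoxb5 and Hoxb6 were held in 7 and 8 HSC libraries, 8 and 8 unstimulated and 11 and 9 stimulated libraries. Hoxb8 was held in 4, 4 and 5. Hoxb3 was held in 3 HSC libraries, all diabetic, and 0 BMDM libraries.

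Along Hoxc, 7 of 9 genes were held in 6 or more HSC libraries, and Hoxc10 and Hoxc12 in 2 and 4. Hoxc5 was held in 8 libraries of each state, and Hoxc9 in 7 HSC, 9 unstimulated and 9 stimulated libraries. Hoxc4 was held in 8, 5 and 5, and Hoxc8 in 6, 5 and 2. At Hoxc13 the site (chr15:102920673-102922384) was present in 10 HSC and 2 libraries of each BMDM state, and the percentile of the promoter ran from 47.9 to 91.8 in HSC with a median of 73.4 and from 36.7 to 65.3 in unstimulated BMDM with a median of 47.7. These ranges overlapped.

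Along Hoxd, Hoxd13, the last gene of the cluster and a regulator of limb and digit formation, was held in 12 HSC, 7 unstimulated and 12 stimulated libraries. Hoxd3 and Hoxd8 were held in 11 HSC libraries each, Hoxd9 and Hoxd11 in 10 each, and all 4 in 6 to 8 unstimulated libraries. Hoxd12, between Hoxd11 and Hoxd13, was held in 2, 0 and 3. Hoxd1, at the other end, was held in 7 HSC, 1 unstimulated and 4 stimulated libraries.

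Among Hox promoters held by H3K4me3 in 6 or more libraries, few were also held by H3K27ac. In HSC, 27 of 31 (87.1%) had H3K4me3 without H3K27ac, in unstimulated BMDM 18 of 21 (85.7%) and in stimulated BMDM 19 of 22 (86.4%). Among all genes these shares were 22.5%, 18.2% and 19.4%. The genes with both marks were Hoxa4, Hoxa7, Hoxa9 and Hoxb4 in HSC, and included Hoxa4 and Hoxb4 in both BMDM states.

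**Figure D4:**
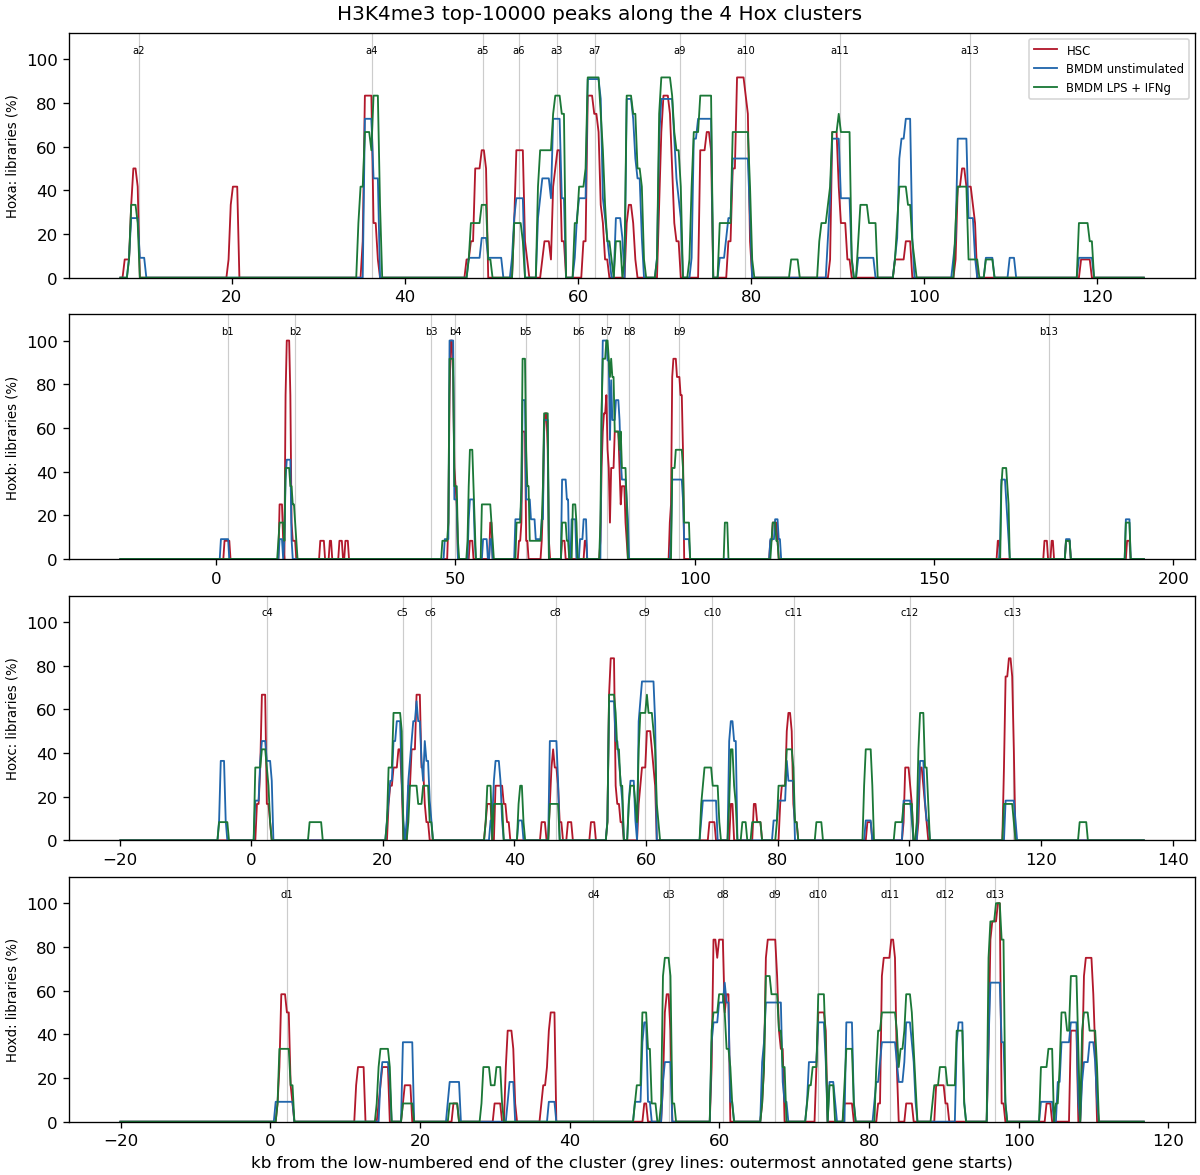
Percentage of libraries with one of the 10000 strongest H3K4me3 peaks in each 250-bp bin along the 4 clusters, against distance in kb from the low-numbered end. Each grey line is a single annotated start of a gene drawn, which is not always the outermost one that the axis label names. Hoxa is drawn from 7 kb on. Peaks stand along all 4 clusters in every cell state, and HSC stand above both BMDM states at Hoxb9 and Hoxc13.

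Between HSC and unstimulated BMDM, 31 Hox promoters could be tested for H3K4me3 and 0 passed by Fisher's exact test, where 3.58% of 6723 genes did (1.83% higher in HSC and 1.76% lower). An unadjusted p under 0.05 was found for 4 of the 31 Hox genes and for 1708 of the 6723 genes, and the 4 were held more often in HSC. They were Hoxc13 in 10 of 12 against 2 of 11 libraries (adjusted p = 0.0578), Hoxb9 in 11 against 5, Hoxd1 in 7 against 1 and Hoxd13 in 12 against 7. By limma on percentiles 4 passed, 3 of them higher in HSC, where 7.34% and 9.28% of 18177 genes were higher and lower. Hoxc13 was higher by 23.5 points (SE 4.82, adjusted p = 0.00245), Hoxb9 by 18.9 (SE 5.36, adjusted p = 0.0178) and Hoxd13 by 13.7 (SE 4.42, adjusted p = 0.0334). By Fisher's exact test 0 Hox genes passed without the 3 control BMDM libraries (Hoxc13 adjusted p = 0.106) and 0 without the 5 H3K4me3 libraries named above (Hoxc13 adjusted p = 0.0984).

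Cluster cover was compared by exact permutation of cell type within control and within diabetic mice (two-sided), adjusted over the clusters and all 100 kb windows with any cover. H3K27ac cover of Hoxb was 0.772% ± 0.314 (SD, n = 12) in HSC and 1.27% ± 0.457 (n = 11) in unstimulated BMDM, an averaged difference of -0.49 points that passed (permutation adjusted p = 0.0279), as did 39.2% of 8161 intervals. It was 1.55% ± 0.420 in stimulated BMDM. This call was lost without unstimulated diabetic library 1 or library 2, with 20000 peaks, with all peaks, with peaks ranked by fold and in control or diabetic mice alone (permutation adjusted p from 0.0971 to 0.208 for the settings other than a library left out). It passed with 5000 peaks and without the 3 control BMDM libraries (permutation adjusted p = 0.00337). Hoxa cover was 2.85% ± 2.38 in HSC, 2.90% ± 1.08 in unstimulated BMDM and 2.56% ± 0.982 in stimulated BMDM, so that HSC spread more widely, from 0% to 6.47%.

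For H3K4me3, Hoxa had the highest mean cover of the 4 clusters in every state, with 9.92% ± 3.95 in HSC, 14.8% ± 5.21 in unstimulated BMDM and 17.3% ± 6.34 in stimulated BMDM, against 0.353%, 0.416% and 0.420% of the genome. The HSC and unstimulated BMDM difference of -4.65 points did not pass (permutation p = 0.0297, adjusted p = 0.178), and 0 of 4 clusters did, where 4.49% of 11548 intervals passed. Hoxb cover was 4.28%, 5.44% and 5.98% in the 3 states, Hoxc 6.08%, 7.60% and 7.85%, and Hoxd 8.89%, 8.22% and 10.7%.

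**Figure D5:**
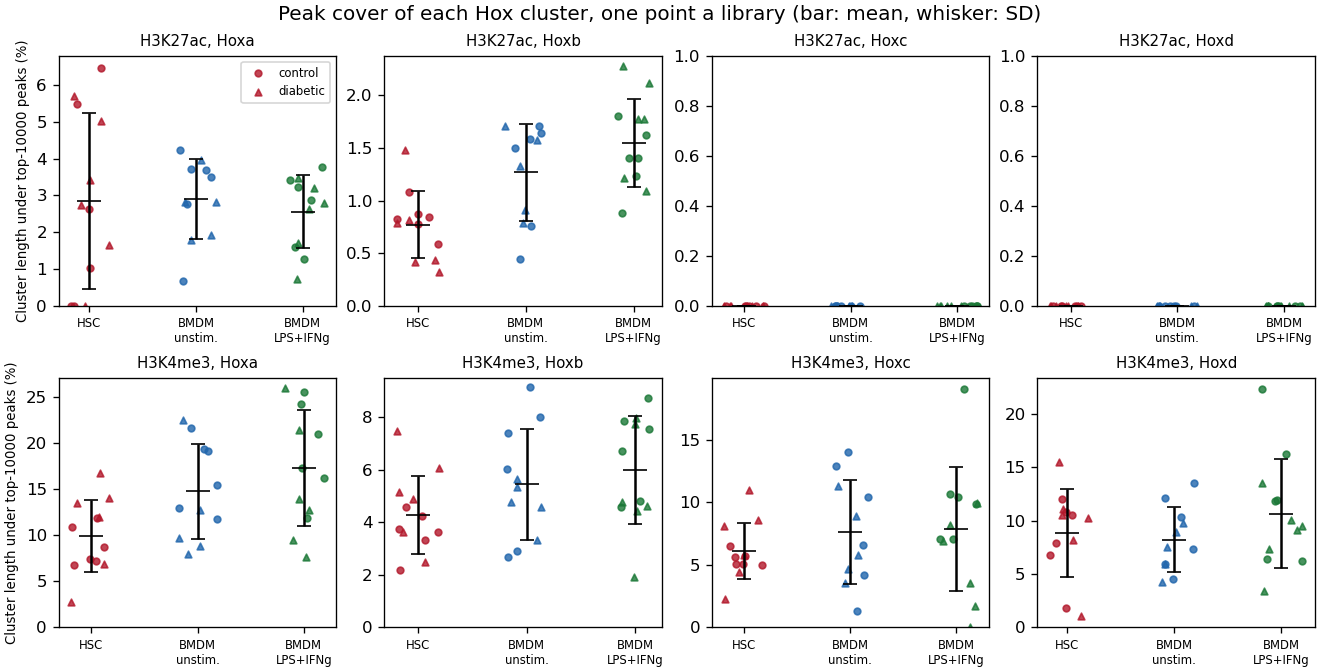
Percentage of each cluster's length under the 10000 strongest peaks, one point a library by cell state, circles control and triangles diabetic, with mean and SD; the upper panels are H3K27ac and the lower H3K4me3, each with its own axis. Hoxc and Hoxd lie at 0 for H3K27ac in all libraries, and control and diabetic libraries overlap throughout.

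No difference between diabetic and control mice passed on the Hox clusters at these sample sizes. By Fisher's exact test 0 Hox promoters passed in any of the 6 comparisons of diabetic with control mice, where 0% of all genes passed, and by exact permutation 0 clusters passed, where 0% of intervals did. Fisher's exact test could reach p = 0.05 for 1 Hox gene in H3K27ac of HSC and for 0 in H3K27ac of either BMDM state. In H3K4me3 it could for 13 in HSC, 11 in unstimulated and 5 in stimulated BMDM. For the remaining Hox genes Fisher's test could not decide. By limma 0 Hox genes passed, where 0.00578% of genes passed for H3K27ac in HSC and in stimulated BMDM and 0% in the other 4. By Fisher's test 0 of the Hox genes that could be tested had an unadjusted p under 0.05, while by limma 1 to 7 of the 39 did in each comparison. The 7 were in H3K4me3 of stimulated BMDM, where 937 of 17962 genes had such a p, and the median difference there, diabetic minus control, was -5.17 percentile points over the Hox genes and -0.43 over all genes. In the other 5 comparisons 1 to 4 Hox genes had such a p, and 549 to 820 of all genes. In H3K27ac, Hoxa7 was held in 4 of 6 control and 5 of 6 diabetic HSC libraries, and Hoxa9 in 3 and 3. In HSC the median rank of Hoxb4 was 6874.5 in control and 7553.5 in diabetic libraries. In cover, H3K4me3 of Hoxc in stimulated BMDM alone had an unadjusted p under 0.05, at 10.7% ± 4.39 in control and 5.03% ± 3.90 in diabetic mice (n = 6 each, exact permutation p = 0.039, adjusted p = 1). The other clusters had lower means in diabetic mice too, 15.2% against 19.4% for Hoxa, 5.25% against 6.70% for Hoxb and 8.82% against 12.5% for Hoxd, with exact permutation p from 0.236 to 0.262. This comparison holds 3 of the 5 H3K4me3 libraries set apart above, 1 control and 2 diabetic, and without the 5 libraries 0 Hox genes passed by Fisher's exact test and 0 clusters by exact permutation. The interaction of cell type and disease in cover passed for 0 clusters, where 0% of intervals passed for H3K27ac and 0.00866% for H3K4me3.

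Stimulation was compared in BMDM, LPS+IFN-γ against unstimulated. Fisher's exact test could reach p = 0.05 for 0 Hox genes in H3K27ac, so it could not decide there, and for 29 in H3K4me3. Of these 29, 0 passed, and 0% of all genes passed for either mark. By limma 0 of 39 Hox genes passed, where 0.425% of genes did for H3K27ac and 0% for H3K4me3. An unadjusted p under 0.05 was seen by Fisher's test for Hoxd13 (12 of 12 against 7 of 11) and Hoxd4 (9 of 12 against 3 of 11) in H3K4me3, and by limma for 2 of 39 in each mark. Of all genes, 295 of 3150 for H3K27ac and 180 of 6327 for H3K4me3 had such a p by Fisher's test, and 2466 of 17644 and 970 of 18183 by limma. Cover of the 4 clusters did not pass for either mark. Labels of 3 control BMDM libraries were in doubt here, as given above, and without them 0 Hox genes passed by Fisher's exact test and 0 clusters by exact permutation for either mark.

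Of 9 genes next to the clusters, H3K27ac held 3 in most libraries. Mtx2, which flanks Hoxd, was held by H3K27ac in 12 of 12 HSC and 11 of 11 unstimulated BMDM libraries, Lnpk on its other side in 12 and 10, and Skap2 beside Hoxa in 12 and 10. H3K27ac held Evx1 and Evx2, homeobox genes at the ends of Hoxa and Hoxd, in 0 libraries, as it did Skap1 and Ttll6 beside Hoxb and Smug1 beside Hoxc, and Calcoco1 beside Hoxc in 1 HSC library. H3K4me3 held Evx1 in 4 HSC, 3 unstimulated and 5 stimulated libraries, and Evx2 in 0, 4 and 6. In the 100 kb beyond each end of Hoxa, Hoxb and Hoxc, H3K27ac cover was 0% in every library.

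Genes that act with or on Hox proteins were compared between HSC and unstimulated BMDM by the same Fisher's test. For H3K27ac, 4 of 9 cofactor genes, 1 of 14 activators and 2 of 14 Polycomb genes could be tested. For H3K4me3, 4, 4 and 2 could. Of these 0 passed in either mark, where 36.8% of all genes that could be tested passed for H3K27ac and 3.58% for H3K4me3. Among 9 cofactor genes, Pbx2 and Pbx3, homeodomain partners of Hox proteins, were held by H3K27ac in 12 of 12 HSC and in 11 and 9 of 11 BMDM libraries. Meis1, another partner, was held in 2 HSC and 5 BMDM libraries (adjusted p = 0.295). Among 14 activators, Kmt2a, the H3K4 methyltransferase, was held in 12 and 10. Cdx1, an activator of Hox genes in the embryo, carried H3K4me3 in 9 HSC and 2 BMDM libraries (adjusted p = 0.0964) and H3K27ac in 0. Among 14 Polycomb genes, H3K27ac held a median of 13 in both cell types, and Ezh2, Eed and Suz12, the core of the H3K27 methyltransferase complex, were each held in 12 of 12 HSC and 11 of 11 unstimulated BMDM libraries.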

How the data were processed

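Per the file headers and labels, the deposited values are MACS2 narrow peaks (2.2.7.1; Trim Galore 0.3.3, Bowtie2 2.2.6 and Picard, GRCm38, per the submitters' processing notes), called by the authors for each library against its own input. Each deposited peak carries a score, a fold enrichment (ratio), and a −log10 p and −log10 q. The lists stopped near a −log10 q of 1.30. The 36 input samples have no peak list here.

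Intervals listed for several summits were counted once, which left 7828714 peaks of 9511856 summits. Each list was reduced to its 10000 strongest peaks by −log10 p, so that lists of different length could be compared, at the price that a promoter is read relative to the rest of its list. Promoters were 1 kb to either side of the 93513 starts of protein-coding genes in GENCODE vM21, with at least 1 bp of overlap. Promoters were tested with Fisher's exact test and cover by exact permutation within control and within diabetic mice, two-sided, with Benjamini-Hochberg adjustment over all genes or 100 kb windows (scipy 1.17.1). Percentiles were fitted with limma 3.58.1 in R 4.3.3, ties of genes with no peak at the lowest place. The tests were tried on simulated data with 200 changed genes, of which Fisher's test recovered 99.5% for H3K27ac and 96% for H3K4me3. The changed genes were held in nearly all libraries of a cell type and in few of the other. That difference is larger than those of Hoxa7 and Hoxa9. Recovery of smaller differences, or with 6 libraries a group, was not tried. The naming rule took Hox genes that passed or were held by at least 3 libraries of a group, the genes beside the clusters, and cofactors, activators and Polycomb genes. Hoxb1, Hoxb13 and Hoxd12 were named after their values were seen. Members and lists were chosen with earlier results of these data known. Alternatives changed the number and ranking of peaks, overlap, promoter width, starts, test and libraries. Depth could not be given, since the lists hold no read counts. Replicates were separate mice as the study describes them. Results of some genes are not reported here.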

Additional observations from a re-analysis of the deposited data

Results flagged for a closer look

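With 5 measures, 48 combinations of a measure and a group of 5 or 6 libraries were examined for a library far from the others. In them 4 were found, where chance gives about 1 in 20 for continuous values. The same libraries recur across the measures. H3K4me3 cover of Hoxc was 19% in LPS+IFN-γ control library 6, against 7.03% to 10.7% in the other 5 of its group. The same library is one of those with peak values of unclear scaling. For H3K27ac, LPS+IFN-γ control library 2 and LPS+IFN-γ diabetic library 3 each held 2 Hox promoters where the others of their groups held 3, and unstimulated diabetic library 4 held 4 where the others held 3. These last 3 differ from their groups by 1 promoter. Where all other counts of a group are equal, a single library that differs is always flagged, so the rate of 1 in 20 does not hold for them.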

How the results depend on the processing

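For H3K27ac promoters between HSC and unstimulated BMDM, 3 Hox genes passed, and 0 did with all peaks, 1 with peaks ranked by fold, 1 in control mice alone, 1 in diabetic mice alone, 1 with principal starts and 12 by limma. Leaving out each of 23 libraries kept the call of Hoxa7 and lost that of Hoxa9 in 6. Over 12 other settings the call was lost for Hoxa7 in 7 and for Hoxa9 in 9. Without the 3 control BMDM libraries 2 passed. With 5000 peaks HSC libraries held a mean of 0 Hox promoters for H3K27ac. Over the 12 settings Hoxb4 was called lower in HSC in 2, limma among them. Its difference (HSC minus unstimulated BMDM) reached -81.8 points. For H3K4me3, where 0 passed, limma called 4 and leaving out 1 library 0 to 1, the gain being Hoxc13 in 4 of 23. Clusters called for H3K27ac cover (1) became 2 with 5000 peaks, and 0 with 20000 peaks, by fold, in control mice alone and in diabetic mice alone, and 0 to 1 on leaving out a library. Hoxa H3K27ac cover (HSC minus BMDM) was -1.32 points with 5000 peaks (permutation adjusted p = 0.00035), 1.42 with 20000 and 0.42 in diabetic mice alone, and -0.42 to 0.27 on leaving out a library. Hoxb was -0.61 with 20000 peaks, -2.32 with all, -0.51 by fold, -0.44 in control and -0.55 in diabetic mice, and -0.58 to -0.44 on leaving out a library. For H3K4me3 cover, 1 cluster was called with 20000 peaks and 2 with all. Hoxa was -8.65 and -11.2, Hoxb -6.60 with all peaks and 0.21 in diabetic mice, and Hoxd -3.80 with 20000, -6.91 with all, -4.65 by fold and -0.65 in control mice. Hoxa4 H3K27ac was 3.33 points in diabetic mice alone, and Hoxd1 H3K4me3 -8.33 with all peaks and -12.1 by fold. The causes were not tested.

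The replicate numbers were not taken as pairs, since in no pair of groups did every correlation of the deviations of same-numbered libraries exceed 0.1 (from -0.31 to 0.37 in all). Unstimulated and LPS+IFN-γ BMDM of diabetic mice came nearest, with 4 of 5 over 0.1 in each mark (0.05 to 0.37 for H3K27ac and 0.01 to 0.34 for H3K4me3), and with the block 0 Hox genes and 0 clusters passed for stimulation in either mark, as without it. With the replicate number as a block, 2 Hox genes passed for H3K27ac promoters (Hoxa9 adjusted p = 0.0562) and 683 of all genes against 1214, and cover called 0 clusters, with Hoxb at -0.46 points (permutation adjusted p = 0.0602). Read depth is unknown, so a missing strong peak does not show that a mark was absent.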
